A study of Mus musculus with 7 samples.

Results

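The 10 genes described here control or mark the formation of fat cells. They were followed in 7 libraries of brown adipose tissue, the fat that burns lipid for heat, from NOD/ShiLtJ mice, which become diabetic through autoimmunity. They are 4 transcription factors that drive the differentiation of adipocytes (Pparg, Cebpa, Cebpb and Cebpd) and 6 genes used to mark their precursors (Pdgfra, Pdgfrb, Dpp4, Pi16, Cd34 and Ly6a). Members were taken by gene name from a table of 55487 genes. Each of the 10 names had 1 line, and all 10 passed the filter on low counts, as did 16823 genes in all.

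Each library carries an animal code of its own in its title. CB-100, the fraction above 100 kDa of a buffer in which brown adipocytes had been kept (labelled imBAT conditioned buffer), had been given for 4 libraries, and KRBH buffer, the sham, for 3. CB-100 was injected under the skin at 1.5 mg per kg over 7 days when glucose stood at 190 to 230 mg/dL, and tissue was taken 2 to 8 weeks later. Sham samples carry the same protocol text with no schedule of their own, and the labels give no age, sex, litter or week of sampling per mouse. Sample titles carry the code nd in each CB-100 mouse and d in each sham mouse, which is not spelled out and cannot be told apart from the injection. The study asked what large secreted proteins of brown adipocytes do to brown fat in this strain, and that question is put here to the genes that make and mark fat cells.

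Adipocytes arise from mesenchymal precursors that lie along vessels and in the connective tissue between fat lobules. In the classical order, hormonal signals first raise the related factors C/EBPβ and C/EBPδ, which then switch on C/EBPα and the nuclear receptor PPARγ. The last 2 maintain each other's expression and that of the genes of the mature fat cell. Precursors are recognised by surface proteins such as the PDGF receptors, with DPP4 and PI16 on an early, interstitial population, and lose them as they fill with lipid.

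The 250 bases upstream of 4 RefSeq start sites of these genes are printed to show the DNA from which they are transcribed (GRCm38.p6, plus strand, 5′ to 3′). Capitals mark 3 kinds of match, each searched on both strands. They are the C/EBP-type motif TTGCNNAA, the TATA box TATAAA, and the GC box, which is spelled GGGCGG. Cebpb and Cebpa are shown as intronless factor genes. Among the windows examined, start site 3 of Pparg is the one with 2 C/EBP-type matches. Pdgfra is the precursor marker among them with a C/EBP-type match.
Cebpb, chr2:167688665-167688914: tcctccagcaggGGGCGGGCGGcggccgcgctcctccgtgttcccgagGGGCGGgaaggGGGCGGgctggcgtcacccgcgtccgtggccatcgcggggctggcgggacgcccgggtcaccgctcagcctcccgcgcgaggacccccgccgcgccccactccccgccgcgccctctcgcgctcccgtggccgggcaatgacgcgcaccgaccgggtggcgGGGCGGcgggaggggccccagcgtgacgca
Cebpa, chr7:35119043-35119292: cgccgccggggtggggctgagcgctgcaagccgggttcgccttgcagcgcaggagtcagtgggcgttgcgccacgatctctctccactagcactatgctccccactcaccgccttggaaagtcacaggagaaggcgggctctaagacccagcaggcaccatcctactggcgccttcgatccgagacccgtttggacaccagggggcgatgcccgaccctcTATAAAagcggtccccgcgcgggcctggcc
Pparg, start site 3, chr6:115421816-115422065: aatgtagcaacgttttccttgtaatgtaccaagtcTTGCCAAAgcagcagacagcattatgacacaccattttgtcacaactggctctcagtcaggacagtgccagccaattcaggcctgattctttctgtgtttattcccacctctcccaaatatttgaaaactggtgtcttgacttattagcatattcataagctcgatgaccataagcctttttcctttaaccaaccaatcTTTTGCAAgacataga
Pdgfra, chr5:75152001-75152250: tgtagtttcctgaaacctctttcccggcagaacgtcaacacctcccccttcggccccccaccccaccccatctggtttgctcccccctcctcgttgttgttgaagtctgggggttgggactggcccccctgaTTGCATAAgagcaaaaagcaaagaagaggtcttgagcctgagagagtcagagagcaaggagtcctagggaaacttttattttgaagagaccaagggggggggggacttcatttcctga
The Cebpb window was 81.6% G or C and held 5 GC boxes, the first pair overlapping, with no TATAAA. The Cebpa window was 66.4% G or C and held TATAAA, beginning at -30 counted from the start site, and no GC box. The 3 start sites of Pparg differed among themselves. The window printed, of start site 3, was 40.8% G or C and held C/EBP-type matches beginning at -215 and -16. That of start site 1 was 82.4% G or C, close to Cebpb, with a GC box at -177. That of start site 2 was 63.6% G or C, close to Cebpa, with TATAAA at -29 and GC boxes at -210 and -127. The Pdgfra window had a C/EBP-type match at -118. Windows of 7 of the 10 genes were examined, 9 windows in all. Cebpd, Pdgfrb and Ly6a were not among them, so whether their windows hold these motifs was not tested. The C/EBP-type motif was in 2 of these 9 windows and in 9.56% of 32851 windows of the same length genome-wide. TATAAA was in 3 of 9 against 12.4%, and the GC box in 3 of 9 against 32.7%. The TATAAA of the Dpp4 window began at -227, far from those of Cebpa at -30 and Pparg start site 2 at -29. These matches describe letters only, and reads were counted per gene, so the 3 Pparg starts cannot be separated in the counts.

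Libraries held 10815101 to 28528471 counts, the most in CB-100 replicate 4. Levels are given as CPM, counts scaled to a common library total after TMM, which evens out differences in composition. Mitochondrially encoded genes took 14.3% to 36.3% of counts, the most again in CB-100 replicate 4. For the labelled tissue, none of 14 brown adipocyte markers was at 0, and their summed level ran from 2092 to 5029 CPM. Ucp1 alone ran from 450 to 2237 CPM in CB-100 and from 46.1 to 875 CPM in sham. Among the 14, 8 estimates were above 0 and 6 below, and edgeR called 0. These values do not show that brown adipocytes made up a like share of each library. Counts of Xist and Y-linked genes showed 1 male in each group, replicate 3 of each. EdgeR's quasi-likelihood test with Benjamini-Hochberg (BH) adjustment called 622 of 16823 genes (3.70%) at an adjusted p of 0.05. Of these, CB-100 was the higher group for 239 (1.42% of genes) and the lower for 383 (2.28%). The labels do not say how the mice were kept or processed together, so a p-value here reflects only how these samples vary, which may be technical in part. In bulk tissue, fewer cells of a type and less RNA per cell cannot be told apart.

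No gene of the 10 passed that test, in either direction, against 3.70% of all genes tested. Missing the threshold does not show that a level was the same in both groups, and the 95% intervals given with the genes show the range the data allow. DESeq2 and limma voom with quality weights also called 0 of the 10, where they called 10.8% and 7.21% of genes. At an unadjusted p under 0.05 the edgeR test gave 1 of the 10, Pdgfrb, against 23.9% of all genes. Estimates were below 0 for Pparg, Cebpa and Cebpd and above 0 for the other 7, and the median log2 change was 0.43, against 0.03 over all genes tested. It was -0.23 over the 4 factors and 0.56 over the 6 precursor markers. The groups overlapped in 9 of the 10 genes, while Pdgfrb was higher in all 4 CB-100 libraries than in any sham library, which 11.1% of all genes were.

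**Figure D1:**
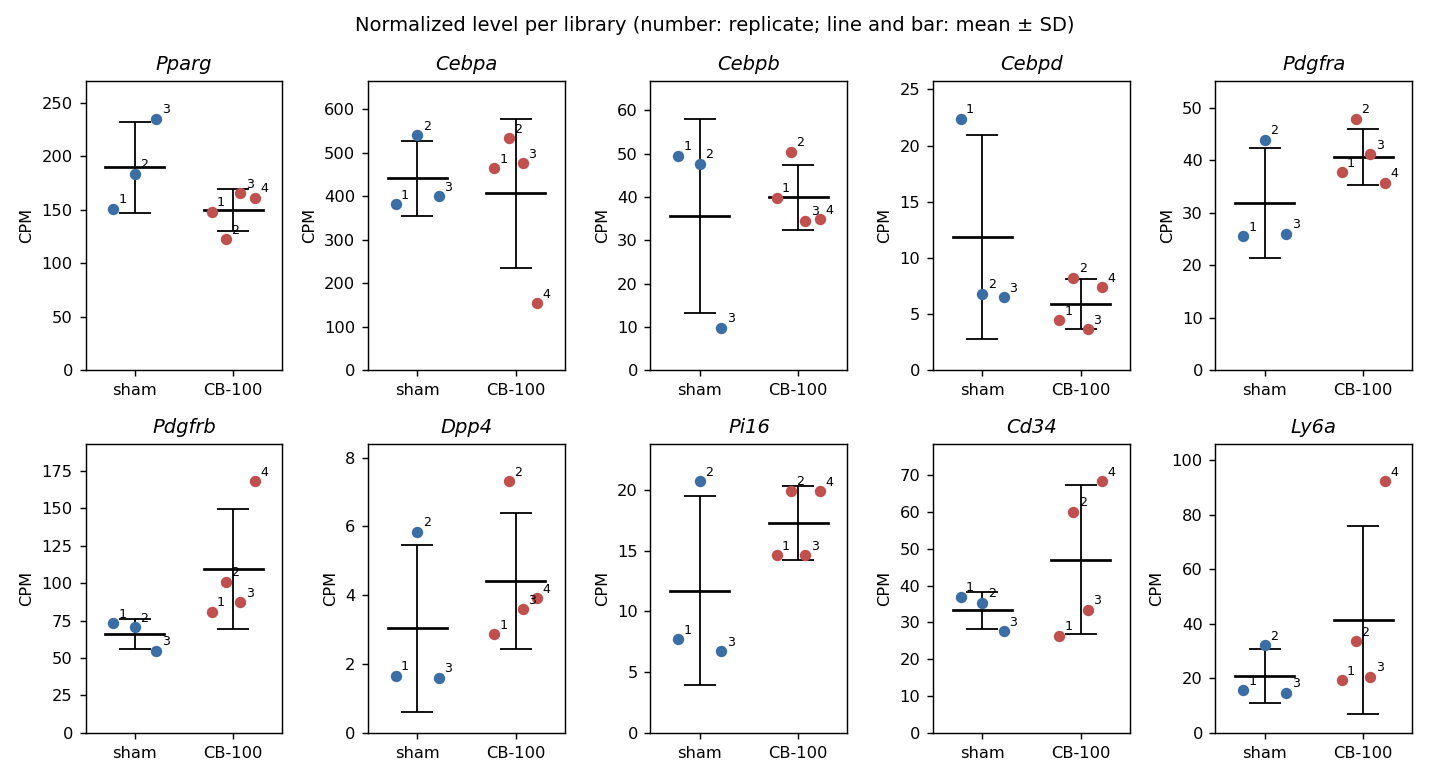
Level of each of the 10 genes in CPM (vertical axes, from 0) in the 3 sham (blue) and 4 CB-100 (red) libraries, numbered by replicate, with group mean and SD in black. Pdgfrb is the 1 gene whose groups do not overlap, and CB-100 replicate 4 lies far from its group in Cebpa, Pdgfrb and Ly6a.

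Pparg encodes PPARγ, the nuclear receptor that fat cells require to form and to persist. Its gene lies on the plus strand of chromosome 6, 115360951 to 115490399 (GRCm38). It stood at 148, 122, 166 and 162 CPM in CB-100 replicates 1 to 4 and at 151, 184 and 235 CPM in sham replicates 1 to 3. The highest 2 libraries were sham and the lowest was CB-100 replicate 2, but sham replicate 1 lay among the CB-100 values. Group means were 149.5 ± 19.6 CPM (SD, n = 4) and 190.0 ± 42.5 CPM (SD, n = 3), a log2 change of -0.35 (95% interval -0.78 to 0.09, edgeR adjusted p = 0.31). Its counts, 1339 to 5004 per library, were whole numbers in every library.

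Cebpa encodes C/EBPα, which acts with PPARγ in the maturing adipocyte and gives it insulin sensitivity. The gene has no intron and lies at chromosome 7, 35119293 to 35121928, on the plus strand, where the model Gm45091 shares exonic bases on the opposite strand. Levels were 465, 534, 476 and 154 CPM in CB-100 and 382, 541 and 401 CPM in sham. CB-100 replicates 1 to 3 lay inside the sham range, and CB-100 replicate 4 lay below every other library, with 3320 counts in the deepest library of the study. The log2 change was -0.12 (95% interval -0.98 to 0.75, edgeR adjusted p = 0.88), and 0.16 without CB-100 replicate 4 (edgeR adjusted p = 0.68).

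Cebpb encodes C/EBPβ, an early factor that hormones and cytokines also induce. It lies at chromosome 2, 167688915 to 167690418, and shares exonic bases with Tmem189 on the opposite strand. Its level was 39.9, 50.5, 34.5 and 34.9 CPM in CB-100 and 49.5, 47.7 and 9.82 CPM in sham. The spread was in the sham group, where replicate 3, the male, held 209 counts against at least 480 in each other library. The log2 change was 0.16 (95% interval -0.93 to 1.26, edgeR adjusted p = 0.86), and -0.29 without sham replicate 3 (edgeR adjusted p = 0.48).

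Cebpd encodes C/EBPδ, the partner of C/EBPβ in early differentiation, whose transcription glucocorticoids raise. It lies at chromosome 16, 15887286 to 15891031, and shares exonic bases with Spidr on the opposite strand. Levels were 4.44, 8.22, 3.67 and 7.40 CPM in CB-100 and 22.4, 6.80 and 6.49 CPM in sham. Sham replicate 1 was far above every other library, while the other 2 sham values lay inside the CB-100 range. With a log2 change of -1.01 (95% interval -2.11 to 0.09, edgeR adjusted p = 0.25) Cebpd had the lowest estimate of the 10, and without sham replicate 1 it was -0.17 (edgeR adjusted p = 0.82). Cebpd had fractional counts in all 7 libraries and Cebpb in 6, and with an overlapping gene on the other strand both are uncertain.

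The 2 PDGF receptors mark mesenchymal cells, PDGFRα the fibroblast-like adipocyte precursors and PDGFRβ both precursors and the mural cells around vessels. Pdgfrb, at chromosome 18, 61045150 to 61085061, with no overlapping gene model and whole counts throughout, stood at 80.8, 101, 87.4 and 168 CPM in CB-100. In sham it stood at 73.3, 70.6 and 54.8 CPM. The groups did not overlap, the closest pair being 80.8 and 73.3 CPM. Means were 109 ± 39.9 CPM (SD, n = 4) and 66.2 ± 9.99 CPM (SD, n = 3), a log2 change of 0.72 (SE 0.26, unadjusted 95% interval 0.13 to 1.32) that did not pass (edgeR adjusted p = 0.14). Without CB-100 replicate 4 the log2 change was 0.44 (edgeR adjusted p = 0.15).

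Mural cells also carry PDGFRβ, and their markers are given beside it. None of 12 mural markers was at 0 and none passed edgeR's test (3 at an unadjusted p under 0.05; DESeq2 and limma voom called 1 each). Of the 12, 11 had an estimate above 0, with a median log2 change of 0.57. Estimates ran from 1.154 for Rgs5, a pericyte marker, to 0.07, 0.06, 0.005 and -0.09 for the contractile genes Acta2, Myh11, Tagln and Des. Their summed level ran from 1086 to 2516 CPM in CB-100 and from 722 to 1094 CPM in sham, so the groups overlapped, and was highest in CB-100 replicate 4. Gene by gene, 3 of the 12 were higher in every CB-100 library than in any sham library, as 11.1% of all genes were. In 0 of the 12 was every CB-100 library lower. The part of mural cells in the Pdgfrb values was not tested.

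Pdgfra lies at chromosome 5, 75152292 to 75198215, where 2 models on the opposite strand and a miRNA gene share exonic bases with it. It stood at 37.7, 47.9, 41.1 and 35.7 CPM in CB-100 and 25.5, 44.0 and 26.0 CPM in sham. The 4 CB-100 libraries were above sham replicates 1 and 3, and sham replicate 2 was second only to CB-100 replicate 2. The log2 change was 0.35 (95% interval -0.13 to 0.84, edgeR adjusted p = 0.34), and 0.66 without sham replicate 2 (edgeR adjusted p = 0.090). CB-100 replicate 4, highest in Pdgfrb, was lowest of its group in Pdgfra. Counts of Pdgfra were fractional in 2 libraries.

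Dpp4 and Pi16 mark the early interstitial precursors, DPP4 being a dipeptidyl peptidase of the cell surface and PI16 a peptidase inhibitor. Dpp4 was the lowest gene of the 10 by count, with 32 to 84.9 counts per library. It stood at 2.86, 7.31, 3.60 and 3.91 CPM in CB-100 and 1.67, 5.84 and 1.60 CPM in sham. Pi16 stood at 14.6, 19.9, 14.6 and 19.9 CPM in CB-100 and 7.71, 20.7 and 6.72 CPM in sham. In both genes sham replicates 1 and 3 lay below all CB-100 libraries and sham replicate 2 lay near their top.

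Log2 changes were 0.55 for Dpp4 (95% interval -0.64 to 1.74, edgeR adjusted p = 0.55) and 0.57 for Pi16 (95% interval -0.30 to 1.43, edgeR adjusted p = 0.39). Without sham replicate 2, Dpp4 gave 1.42 (edgeR adjusted p = 0.12) and Pi16 gave 1.26 (edgeR adjusted p = 0.0425). That was the 1 call among the 10 genes in the 17 alternative fits. Over those fits the adjusted p of Pi16 ran from 0.0425 to 0.745. Pi16 (chromosome 17, 29317680 to 29330593) had fractional counts in 6 libraries and Dpp4 (chromosome 2, 62330073 to 62412231, minus strand) in 2, each with an overlapping model on the opposite strand.

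Cd34 and Ly6a encode surface proteins, a sialomucin and the antigen Sca-1, that are used to sort adipose precursors and are also found on endothelial cells. Cd34 (chromosome 1, 194938819 to 194961279) stood at 26.4, 60.1, 33.5 and 68.3 CPM in CB-100 and 37.0, 35.4 and 27.6 CPM in sham. CB-100 replicates 2 and 4 were the highest and CB-100 replicate 1 the lowest of the 7. The log2 change was 0.50 (95% interval -0.24 to 1.24, edgeR adjusted p = 0.38), and 0.26 without CB-100 replicate 4. Cd34 had fractional counts in 4 libraries and shares exonic bases with a model on the opposite strand.

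Ly6a (chromosome 15, 74994877 to 74998031, minus strand) stood at 19.3, 33.7, 20.6 and 92.3 CPM in CB-100 and 15.8, 32.2 and 14.8 CPM in sham. CB-100 replicate 4 held 1984 counts and the other 6 libraries 270 to 468. Ly6a had the highest estimate of the 10 and the widest interval, a log2 change of 1.00 (95% interval -0.36 to 2.36, edgeR adjusted p = 0.34). It was 0.24 without CB-100 replicate 4 (edgeR adjusted p = 0.73). Ly6a belongs to a family of closely related genes and its counts were non-whole in 5 libraries, so it is uncertain.

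The summed level of endothelial markers was also highest in CB-100 replicate 4, though Cldn5 and Esam had their highest value in a sham library. Of 12 such markers, none was at 0, 10 had an estimate above 0 and 0 passed edgeR's test (3 at an unadjusted p under 0.05; DESeq2 and limma voom called 1 each). Their summed level was 1071 to 2379 CPM in CB-100 and 833 to 1417 CPM in sham, with 2379 CPM in CB-100 replicate 4 and 1249 CPM in the next CB-100 library. In CB-100 replicate 4 the 5 red blood cell markers summed to 4544 CPM, against 787 to 2201 CPM in the other 6 libraries. The part of these cells in the Cd34 and Ly6a values was not tested.

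**Figure D2:**
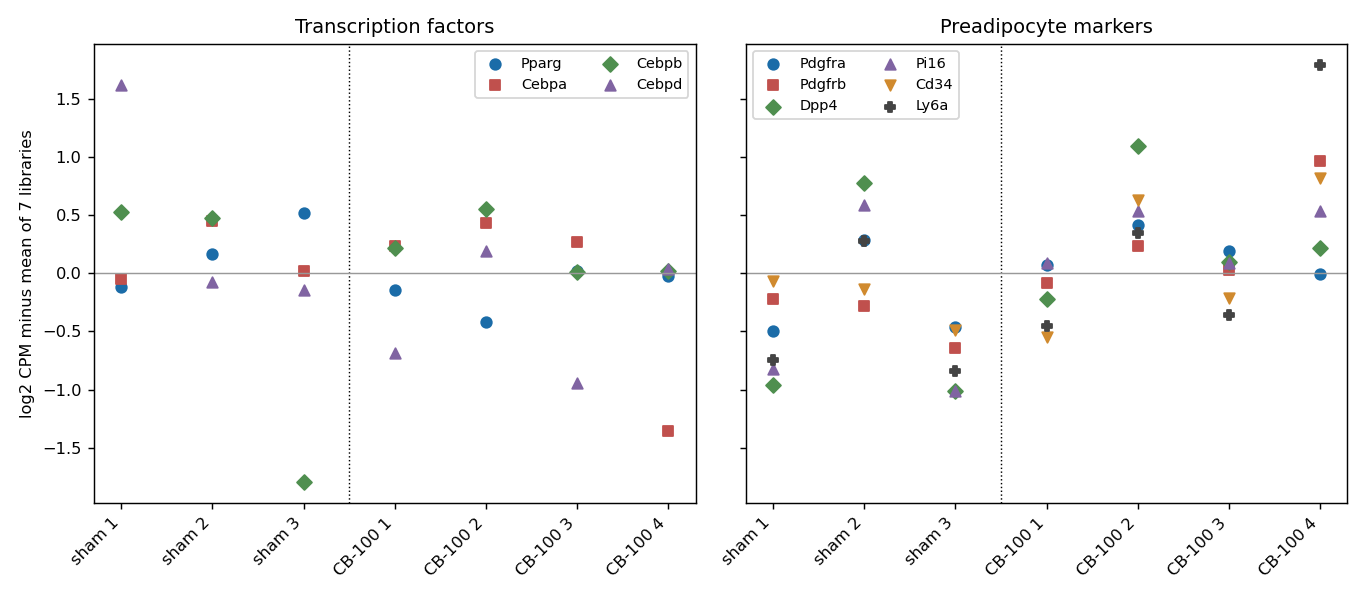
Log2 CPM of each gene minus its mean over the 7 libraries (vertical axis) by library (horizontal axis), for the 4 factors (left) and the 6 precursor markers (right), with a dotted line between sham and CB-100. Among the markers sham replicates 1 and 3 lie below 0 in every gene and CB-100 replicate 2 above 0 in every gene, while the highest library differs between the 4 factors.

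Seen by library, 4 of the 6 precursor markers were lowest in sham replicate 3, which was the lowest library for 14.5% of all genes, and 5 of the 6 were highest in CB-100 replicate 2 or 4, the highest libraries for 15.2% and 21.6% of genes. By library, the share of all genes with their highest value ran from 8.96% (CB-100 replicate 3) to 21.6%, and that with their lowest from 8.83% (CB-100 replicate 3) to 19.6% (CB-100 replicate 4). Sham replicate 2 was the exception in its group, being among the highest 3 libraries for Dpp4, Pi16, Pdgfra and Ly6a. Schwann cell markers, of the nerves in the tissue, had a summed level of 91.4 to 130.5 CPM in CB-100 and 54.6 to 66.4 CPM in sham, without overlap. All 6 had an estimate above 0, where 52.7% of all genes did. In edgeR's test 1 of the 6, S100b, rose (log2 change 2.51, adjusted p = 0.035), as 1.42% of all genes did. An unadjusted edgeR p under 0.05 was found for 3 of the 6, against 23.9% of all genes. DESeq2 and limma voom called 2 higher each. Gene by gene, 2 of the 6 were higher in every CB-100 library than in any sham library, as 11.1% of all genes were. The part of these cells in the precursor marker values was not tested. The factors showed no such order by library, with Cebpd highest in sham replicate 1, Cebpa in sham replicate 2, Pparg in sham replicate 3 and Cebpb in CB-100 replicate 2. The highest library was 1.88 times the lowest for Pdgfra and 1.92 times for Pparg, the steadiest of the 10, and 6.25 times for Ly6a and 6.10 times for Cebpd, the most variable.

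**Figure D3:**
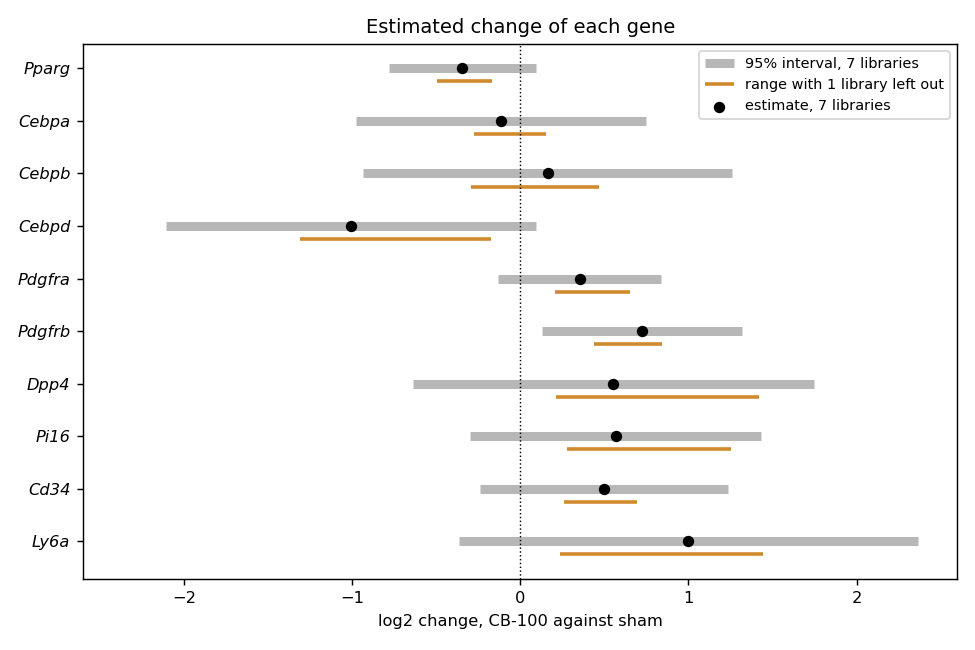
Log2 change between CB-100 and sham (horizontal axis, above 0 is higher in CB-100) of each gene as estimate (point), 95% interval not adjusted for multiple tests (grey) and range of estimates with 1 library left out (orange). The interval of Pdgfrb, 0.13 to 1.32, is the 1 that leaves out 0, and the orange ranges of Cebpa and Cebpb cross 0.

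Levels between genes were compared per kilobase of exon, as CPM per kb averaged over the 7 libraries. Cebpa was the highest at 160 ± 50.2 CPM per kb (SD, n = 7), then Pparg at 56.5 ± 12.0, and Cebpa was above Pparg in each of the 7 libraries. Ly6a at 27.1 ± 22.7 and Cebpb at 25.3 ± 9.41 CPM per kb did not differ beyond their spread, since Ly6a was above Cebpb in 2 of 7 libraries. Pdgfrb followed at 16.6 ± 6.73, below Cebpb in 5 of 7 libraries, then Cd34 at 5.65 ± 2.24 and Pdgfra at 3.68 ± 0.85. Pi16 at 2.34 ± 0.91 and Cebpd at 2.27 ± 1.69 CPM per kb stood in that order in 5 of 7 libraries, and Dpp4 was lowest at 0.61 ± 0.33. The 2 factors of the mature adipocyte thus lay above the 6 precursor markers by mean level. In CB-100 replicate 4, however, Ly6a, at 76.6 CPM per kb, was above both Cebpa at 58.6 and Pparg at 54.7.

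Ratios between members within a library hardly depend on how libraries are scaled, and 10 of them were compared between the groups by exact two-sided permutation over 35 splits, where the smallest possible p is 0.0286. BH adjustment over 10 ratios puts 0.05 out of reach unless several of them sit at that smallest p, and none passed, which the design nearly fixed. The log2 ratio of Pparg to Pdgfra, mature factor to precursor receptor, had the smallest p, at 1.88 ± 0.36 (SD, n = 4) against 2.597 ± 0.56 (SD, n = 3). The difference was -0.72 (exact permutation p = 0.0571, BH-adjusted p = 0.571), and the groups overlapped, sham replicate 2 lying at 2.06 and CB-100 replicate 4 at 2.17.

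Between the C/EBP factors the log2 ratio of Cebpb to Cebpd averaged 2.79 ± 0.46 (SD, n = 4) after CB-100 and 1.51 ± 1.14 (SD, n = 3) after sham (difference 1.28, exact permutation p = 0.143, BH-adjusted p = 0.694). Sham replicate 2, at 2.79, lay inside the CB-100 range of 2.22 to 3.19. Pparg to Cebpa differed by -0.08 (exact permutation p = 0.886, BH-adjusted p = 0.984), and CB-100 replicate 4, at 0.06, was the 1 library in which Pparg had more CPM than Cebpa. For the early precursor genes the log2 ratio of Dpp4 to Pi16 was -2.01 ± 0.41 (SD, n = 4) after CB-100 and -1.98 ± 0.16 (SD, n = 3) after sham (exact permutation p = 1, BH-adjusted p = 1). For the other 6 ratios the BH-adjusted p was 0.694 to 0.786.

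**Figure D4:**
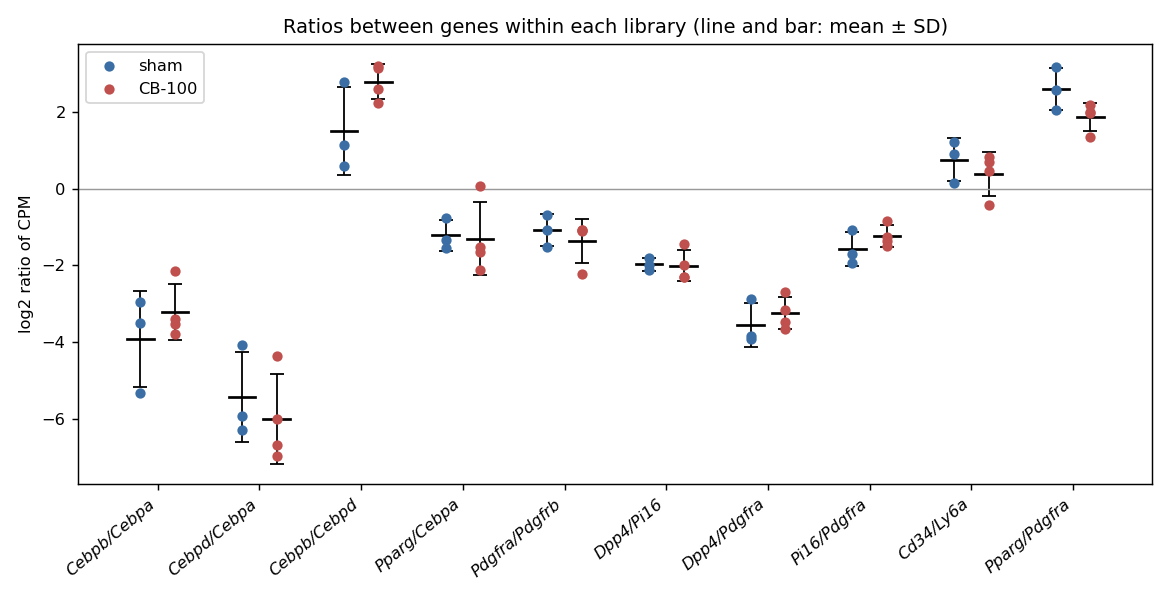
Log2 ratio of CPM between pairs of the 10 genes (vertical axis) within each sham (blue) and CB-100 (red) library, with group mean and SD in black. The groups overlap in all 10 ratios, and in Pdgfra to Pdgfrb 3 CB-100 libraries lie between -1.10 and -1.07 and replicate 4 at -2.23.

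Other genes of the pathway were taken from 5 lists. Over all genes tested, edgeR called 3.70%, DESeq2 10.8% and limma voom 7.21%, 23.9% had an unadjusted edgeR p under 0.05, and 52.7% had an estimate above 0. Of 24 further activators of adipogenesis, mostly transcription factors but also Bmp4 and Bmpr1a, 1 rose and 0 fell in edgeR's test. Over all genes these shares were 1.42% and 2.28%. At an unadjusted edgeR p under 0.05 there were 10 of the 24, while DESeq2 called 4 higher and 2 lower and limma voom 2 higher. The median log2 change of the 24 was 0.12. The gene that rose was Srebf1, which encodes the SREBP-1 factor of fatty acid synthesis, at 221 to 290 CPM in CB-100 and 149 to 169 CPM in sham. Its log2 change was 0.74 with an SE of 0.16 (edgeR adjusted p = 0.046), and Rai1 overlaps Srebf1 on the opposite strand. The call was lost without any 1 library but CB-100 replicate 4, and in these fits the edgeR adjusted p was 0.078 to 0.18 while the log2 change stayed at 0.69 to 0.80. Lpin1, which encodes lipin 1, a phosphatidate phosphatase and coactivator needed for fat cell maturation, stood at 339 to 493 CPM in CB-100 and 569 to 1792 CPM in sham (log2 change -1.47, edgeR adjusted p = 0.054).

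Of 21 inhibitors of adipogenesis, edgeR called 0 (7 at an unadjusted p under 0.05; DESeq2 called 1 higher and 1 lower, limma voom 0), and 16 estimates were above 0 with a median of 0.42, where 52.7% of all genes were above 0. Hes1, a repressor downstream of Notch, stood at 7.30 to 16.3 CPM in CB-100 and 3.75 to 6.91 CPM in sham (log2 change 1.24, edgeR adjusted p = 0.064). Trib3, a pseudokinase, stood at 8.98 to 15.5 CPM against 18.1 to 23.7 CPM (log2 change -0.75, edgeR adjusted p = 0.073).

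Of 23 PPARγ target genes of the mature adipocyte, edgeR also called 0 (7 at an unadjusted p under 0.05; DESeq2 called 1 higher and 4 lower, limma voom 3 lower). Their median log2 change was -0.08, with 10 estimates above 0 and 13 below. The smallest p belonged to Adipoq (edgeR adjusted p = 0.051), which encodes adiponectin and stood at 359 to 375 CPM in CB-100 and 484 to 808 CPM in sham. Dgat1, an enzyme of the last step of triglyceride synthesis, stood at 119 to 179 CPM in CB-100 and 89.8 to 94.9 CPM in sham (log2 change 0.71, edgeR adjusted p = 0.055).

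Of 30 other precursor markers 29 were tested, and 25 of these had an estimate above 0, where 52.7% of all genes did. Their median log2 change was 0.49, but edgeR called 0 (7 at an unadjusted p under 0.05; DESeq2 called 4 higher and 2 lower, limma voom 2 and 2). The list's summed level was 737 to 1353 CPM in CB-100 and 674 to 818 CPM in sham, highest in CB-100 replicate 4. The 2 members with the smallest p went the other way. Dcn, which encodes the matrix proteoglycan decorin, stood at 48.0 to 78.7 CPM in CB-100 and 94.9 to 116 CPM in sham (log2 change -0.74, edgeR adjusted p = 0.055). Fmo2, a flavin monooxygenase, gave -1.38 (edgeR adjusted p = 0.059).

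Of the 4 ligands of the PDGF receptors, edgeR called 0 (1 at an unadjusted p under 0.05; DESeq2 and limma voom called 1 higher each). In each case that gene was Pdgfa, the ligand of PDGFRα, at 8.01 to 9.49 CPM in CB-100 and 4.22 to 5.73 CPM in sham. Its log2 change was 0.79 with an SE of 0.19 (edgeR adjusted p = 0.054). For Pdgfc the log2 change was 0.48 (edgeR adjusted p = 0.37) and counts were fractional in 4 libraries. Both genes have an overlapping model on the opposite strand.

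**Figure D5:**
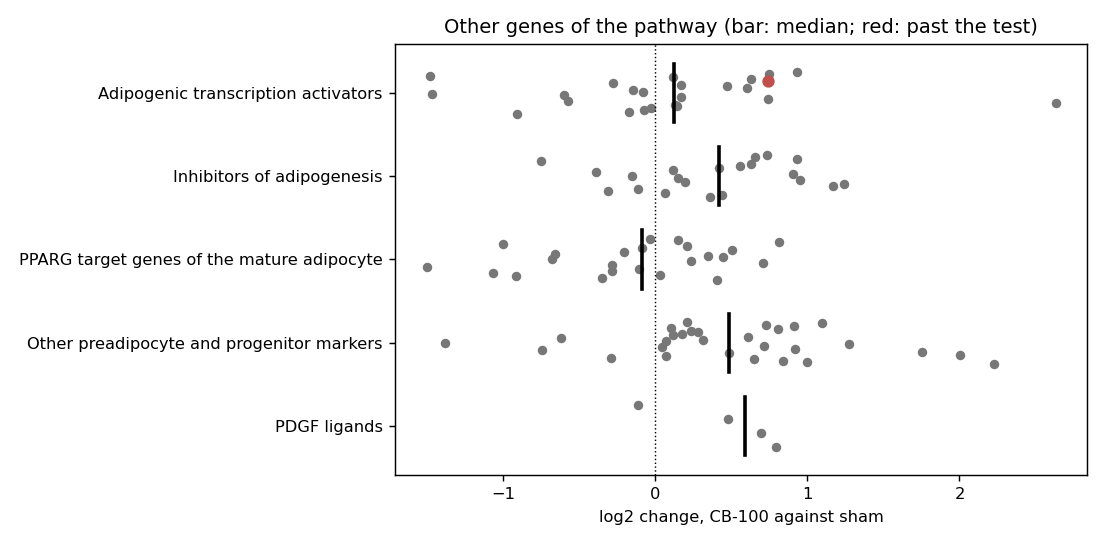
Log2 change between CB-100 and sham (horizontal axis) of each tested gene of 5 lists (rows, points spread for clarity), with the list's median as a black bar. The 1 red point, Srebf1 at 0.74, passed edgeR's test, and the medians run from -0.08 for PPARγ targets to 0.59 for PDGF ligands.

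The profiles most like those of Pparg, Cebpa and Pdgfra were sought among 8186 other protein-coding genes with a mean of at least 10 CPM, by the Euclidean distance of log2 CPM centred over the 7 libraries. For Pparg these were Erp44, a chaperone of the secretory pathway (distance 0.21), Tmbim4 (0.24) and Ubl4a (0.26), against a median distance of 0.93. For Cebpa they were Ppara, the nuclear receptor of fatty acid oxidation (distance 0.50), 6430571L13Rik (0.57) and Vegfb, a growth factor of the VEGF family (0.59), against a median of 1.66. For Pdgfra they were Cd74, the invariant chain of MHC class II (0.27), H2-Aa, a class II chain (0.30), and Smo, the transducer of Hedgehog signals (0.31), against a median of 1.14. With 7 libraries and this many genes, such likeness is a description of these samples.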

How the data were processed

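RNA of 7 brown adipose tissue samples was sequenced. Per the labels' protocols, STAR 2.7.9a was the aligner and Ensembl release 101 the assembly. Also listed, in the submitters' processing notes, are featureCounts 2.0.3, Salmon 1.5.2, Subread, edgeR and limma, with no role. How reads were counted, and whether by strand, is not given in the sources used. The values are expected counts, deposited as 1 whole-series table in which some counts are fractional. Its 55774 lines included 287 repeats, which were removed. Coordinates, exon lengths (merged over transcripts) and overlaps come from GENCODE M21 on GRCm38, which matched 99.5% of genes by identifier; promoter sequences come from RefSeq (GRCm38.p6).

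Groups came from the treatment label, and replicate numbers follow accession order. Counts were rounded, filtered by filterByExpr, scaled by TMM (factors 0.755 to 1.25) and tested with edgeR 4.0.16 (robust quasi-likelihood, group only) in R 4.3.3, with two-sided p-values BH-adjusted over 16823 genes. The SE is the log2 change over the square root of F, and intervals are 95% and unadjusted. Ratios used log2 CPM with a prior count of 2. The fit was tested on simulated data.

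Genes named beyond the 10 are, per list, up to 4 called members, or where fewer than 2 were called the 2 with the smallest p, and the 3 nearest profiles of Pparg, Cebpa and Pdgfra. Where a symbol had several identifiers the lowest-numbered was used. Members and lists were chosen with earlier results of these data known. Alternatives were other scalings, filters, tools (DESeq2 1.42.0, limma 3.58.1 voom), thresholds and gene sets, sex as covariate, females only, and each library left out.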

Additional observations from a re-analysis of the deposited data

Results flagged for a closer look

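Of 20 sets of 4 CB-100 values examined (10 levels and 10 ratios), 1 held a library far from the others, and chance flags about 1 in 20. The log2 ratio of Pdgfra to Pdgfrb was -2.23 in CB-100 replicate 4 and -1.10, -1.07 and -1.08 in CB-100 replicates 1 to 3, so that the gap was 0.978 of the whole range, above Dixon's 95% limit for 4 values. Without that library the difference between the groups was 0.0055 in place of -0.28. Its Cebpa and Ly6a levels came close to the same limit, with gaps of 0.818 and 0.803 of the range.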

How the results depend on the processing

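Of the 10 genes 0 were called in 16 of 17 alternative fits, and with 1 library left out the number was 0 to 1. At a threshold of 0.1 it was 0. Among all genes the number of calls was 8 to 610 with 1 library left out (97, 24, 187 and 610 without CB-100 replicates 1 to 4; 14, 319 and 8 without sham replicates 1 to 3), 1826 with DESeq2, 1213 with limma voom, 238 with sex as covariate, 0 in females only (2578 at an unadjusted p under 0.05) and 1860 at a threshold of 0.1, against 622. Of the genes of the 5 pathway lists, 1 was called, against 2 with upper quartile scaling, 9 with no filter, 3 with at least 1 CPM in 3 libraries, 20 with DESeq2, 10 with limma voom, 3 with protein-coding genes only, 0 with sex as covariate, 0 in females only, 18 at a threshold of 0.1 and 0 to 4 with 1 library left out. Upper quartile scaling moved the split of all calls to 282 higher and 324 lower.

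The other 8 of the 10 genes kept their direction in all 17 fits. With 1 library left out the log2 change of Cebpa ran from -0.27 to 0.16 and that of Cebpb from -0.29 to 0.47. With limma voom that of Cebpb was 0.71 (limma voom adjusted p = 0.41), against 0.16 in the main fit. Cebpa turned to 0.017 with limma voom, 0.16 without CB-100 replicate 4 and 0.05 without sham replicate 2, and Cebpb to -0.29 without sham replicate 3 and -0.23 in females only. Of the ratios, which 0 passed in any setting, Cebpd to Cebpa ran from -1.12 to 0.10 with 1 library left out, turning without sham replicate 1. Pparg to Cebpa ran from -0.54 to 0.19 and turned to 0.03, 0.19 and 0.14 without CB-100 replicates 1 and 2 and sham replicate 3. Pdgfra to Pdgfrb ran from -0.49 to 0.0055, turning without CB-100 replicate 4. Dpp4 to Pi16 ran from -0.22 to 0.069 and turned to 0.07, 0.07 and 0.05 without CB-100 replicates 1 and 4 and sham replicate 2. With 1 library left out the exact test cannot reach 0.05. No paired analysis was possible because the animal codes in the labels are not shared between groups. The causes were not tested. At 32 to 84.9 counts per library, Dpp4 had the lowest counts of the 10 genes.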

Other observations

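Mesothelial cells, the lining of body cavities, are 1 of the cell types that the tissue could hold. Of 6 markers 2 were tested, Upk1b was at 0 in all libraries, and Msln, Upk3b and Wt1 each had under 10 counts over all libraries together. The summed level of the 6 was 3.81 to 16.6 CPM in CB-100 and 18.1 to 33.6 CPM in sham, without overlap. Lrrn4, named after its values were seen, stood at 2.88 to 6.30 CPM in CB-100 and 9.89 to 33.1 CPM in sham and fell in CB-100 (log2 change -2.16, edgeR adjusted p = 0.035), while Krt19, at 0.36 to 14.2 CPM in sham and 0.79 to 12.7 CPM in CB-100, did not pass.

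Macrophages are another cell type of the tissue. Of 10 of their markers tested, edgeR, DESeq2 and limma voom called 0 (0 at an unadjusted p under 0.05 in edgeR), 8 estimates were below 0 and the summed level was 138 to 294 CPM in CB-100 and 163 to 230 CPM in sham. Skeletal muscle markers, 11 genes of the muscle that adjoins this depot, summed to 312 to 2340 CPM in CB-100 and 855 to 1935 CPM in sham, with 0 called by edgeR, DESeq2 or limma voom (0 at an unadjusted p under 0.05 in edgeR).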
